A study of Mus musculus with 12 samples.

Results

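Of the 15113 genes in the count table of BAM15-treated C2C12 myotubes, 10 are described here: Nrip2, Try5, Car6, Dyrk4, Cdsn, Avil, Tpsab1, Akr1b7, Scara5 and Entpd2. They were picked by name because their counts were low with vehicle and high after BAM15 in these same libraries, so the difference between the conditions is given for them as a description, without a test. C2C12 is a single mouse myoblast line that forms multinucleated myotubes in low-serum medium, and BAM15 is a protonophore, a small molecule that carries protons across the inner mitochondrial membrane and thereby uncouples respiration from ATP synthesis. Fully differentiated myotubes were exposed for 16 h to 20 μM BAM15 dissolved in DMSO or to the DMSO vehicle alone. RNA was sequenced from the 3′ end of polyadenylated transcripts in 6 libraries per condition. The labels do not say whether these libraries came from separate cultures, so the spread between them may be technical. In bulk RNA, more transcript per cell and more cells with the transcript cannot be told apart.

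These genes are not members of 1 pathway. They are best known from specialised tissues: a salivary carbonic anhydrase (Car6), a pancreatic trypsin (Try5), a mast cell tryptase (Tpsab1), an adhesion protein of the outermost epidermis (Cdsn), an actin-binding protein of sensory neurons (Avil), a kinase of the DYRK family (Dyrk4), a nuclear receptor co-regulator (Nrip2), an aldose reductase-like enzyme (Akr1b7), a ferritin-binding scavenger receptor (Scara5) and an enzyme that degrades extracellular ATP (Entpd2). Uncoupling of mitochondria lowers the ATP yield of respiration and is known to set off stress signaling to the nucleus.

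Total counts lay between 13983725 and 18866728 reads per library. The libraries of each condition carry the numbers 1 to 6, and the BAM15 libraries numbered 4 to 6 stood apart from those numbered 1 to 3. Of the 12730 genes with enough counts to test, 22.2% were higher and 27.7% were lower in all 3 BAM15 libraries numbered 4 to 6 than in all 3 numbered 1 to 3, against 6.60% and 7.60% between the vehicle libraries with the same numbers. The labels name no batch, and the values of the 10 genes are therefore also given within each set of numbers. The myotube label was checked on 9 marker genes of differentiated muscle (Myh3, Myh8, Ckm, Acta1, Tnnt3, Mb, Myog, Des and Ttn). All 9 were in the table, with a summed level of 17600 to 24220 CPM (counts scaled to a common library size) after BAM15 and 18460 to 21000 CPM with vehicle. The overlap of these sums does not mean that each marker was unchanged. By edgeR at an adjusted p-value under 0.01, Acta1 and Myog were higher after BAM15 and Ckm and Mb were lower, each by less than 2-fold.

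The name under which these genes were grouped, nearly silent without BAM15, held for some of them only. Nrip2 and Dyrk4 had at most 3 counts in every vehicle library, and Try5 had at most 5. The other 7 genes had more than 3 counts in every vehicle library, with the highest level in Car6 (24 to 49 counts). On the scale of the whole table, 0.536% of the genes had a lower mean vehicle level than Nrip2, and 27.7% had a lower one than Car6. No gene of the 10 was at 0 in all 6 vehicle libraries. Summed over the libraries, the 10 genes had 755 counts with vehicle and 78038 counts after BAM15, of which Car6 contributed 57.2%. For every gene the lowest BAM15 library lay above the highest vehicle library. Such a gap in this direction was found for 17.1% of all tested genes, and in either direction for 34.2%, and it is fixed here by the choice of the genes.

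**Figure D1:**
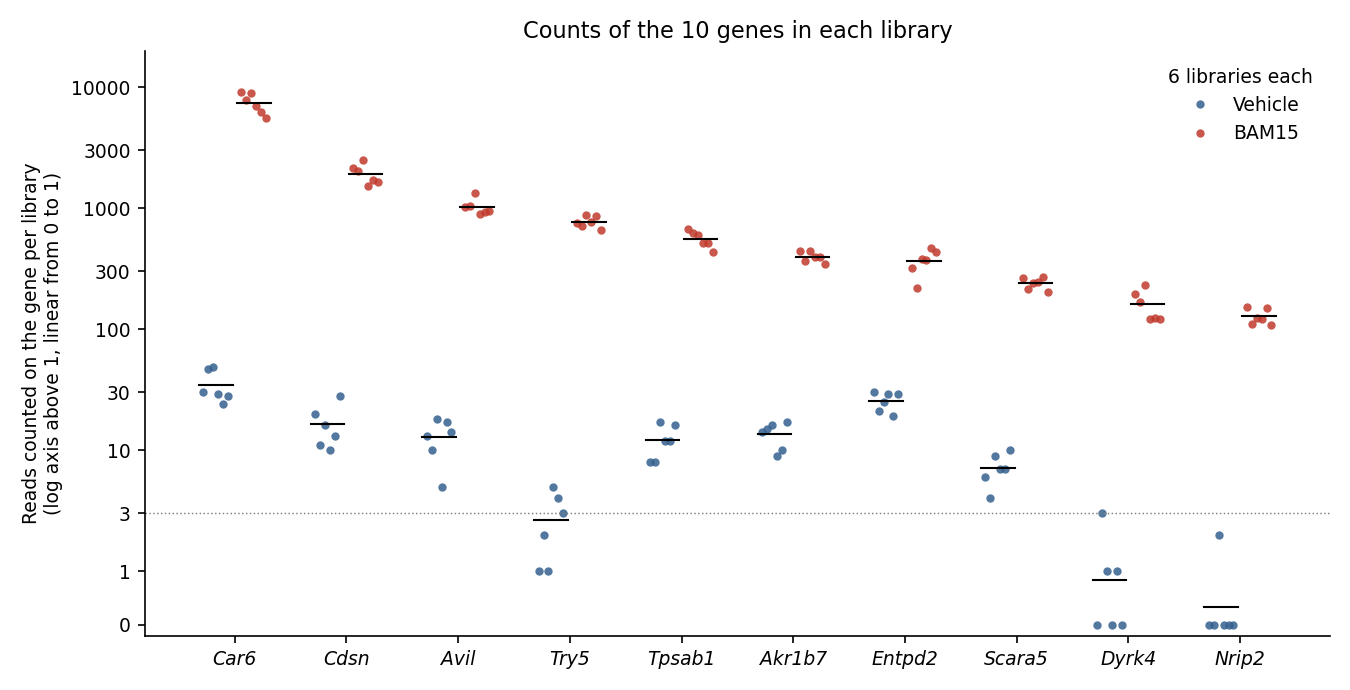
Reads counted on each of the 10 genes (horizontal axis) in each library (vertical axis, logarithmic above 1 and linear from 0 to 1). Blue points are the 6 vehicle libraries and red points the 6 BAM15 libraries, black bars are group means of the counts, and the dotted line marks 3 counts. Nrip2 and Dyrk4 reach 0 with vehicle, whereas Car6 and Entpd2 have 19 counts or more in every vehicle library.

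Sizes of the differences are given as the ratio of summed counts, scaled by the normalized library sizes, with an exact 95% interval that covers counting error only and not the spread between cultures. Where a vehicle sum is near 0, the lower end of this interval is the lower bound of the change. Normalized counts are means ± SD of 6 libraries, scaled by the TMM method of edgeR. The fitted log2 fold change comes from edgeR's quasi-likelihood model of all tested genes, whose median log2 fold change was 0.02.

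Among the genes of secreted enzymes, Car6 reached by far the highest level of the 10. Car6 (ENSMUSG00000028972, chromosome 4, 150187015 to 150201332, minus strand) encodes carbonic anhydrase 6, the secreted member of the family that converts carbon dioxide and water to bicarbonate in saliva. Its counts after BAM15 had a lowest, median and highest value of 5596, 7417 and 9050, and with vehicle of 24, 29.5 and 49. The ratio was 224.5 (95% interval 195.8 to 258.5), a fitted log2 fold change of 7.80. Normalized counts were 7578 ± 1196 after BAM15 and 34.1 ± 11.4 with vehicle (SD, n = 6 each). This placed Car6 above 97.8% of the genes of the table after BAM15. Car6 was thus detected in every vehicle library and near the top of the table after BAM15. The BAM15 libraries numbered 4 to 6 (5807 to 7481 normalized counts) all lay below those numbered 1 to 3 (8403 to 8786). Within numbers 1 to 3 the ratio was 211.9 and within numbers 4 to 6 it was 243.4.

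Try5 (ENSMUSG00000036938, chromosome 6, 41311233 to 41316841, minus strand) encodes a trypsin, a digestive serine protease. Its vehicle libraries 1 to 6 held 1, 2, 1, 5, 4 and 3 counts, and its BAM15 libraries 760, 707, 871, 763, 860 and 655. The vehicle counts of numbers 4 to 6 all exceeded those of numbers 1 to 3, by a few reads. The ratio of 300.5 (95% interval 184.9 to 526.2) rests on a vehicle sum of 16 counts. It was 604.4 (95% interval 235.8 to 2220) within numbers 1 to 3 and 199.3 (95% interval 113.8 to 386.2) within numbers 4 to 6, and these intervals overlap. Among the 10 genes Try5 had the smallest relative spread after BAM15, with 784.6 ± 33.6 normalized counts, a coefficient of variation of 4.28%. Of the 351 windows of 50 bases in the last 400 bases of its longest coding transcript, 35.9% also occur in transcripts of Gm10334, Gm5409, Prss2, Prss3, Try10 or Try4. None of these 6 genes is listed in the count table, and which trypsin gene such reads came from cannot be told from the counts.

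Tpsab1 (ENSMUSG00000024173, chromosome 17, 25343245 to 25345562, minus strand) encodes a tryptase stored in mast cell granules. Its counts had a lowest, median and highest value of 433, 555 and 670 after BAM15 and of 8, 12 and 17 with vehicle. The ratio was 47.7 (95% interval 37.8 to 61.0), with 59.1 within numbers 1 to 3 and 38.3 within numbers 4 to 6. Its BAM15 libraries numbered 4 to 6 (480.7 to 547.9 normalized counts) lay below all of those numbered 1 to 3 (561.3 to 668.7).

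Entpd2 (ENSMUSG00000015085, chromosome 2, 25395874 to 25401321, plus strand) encodes a membrane ectonucleotidase that hydrolyses extracellular ATP. It had the smallest change of the 10 and was detected at 19 to 30 counts in every vehicle library (median 27). After BAM15 the lowest, median and highest counts were 219, 378.5 and 466, a ratio of 14.9 (95% interval 12.7 to 17.7) and a fitted log2 fold change of 3.90. Its BAM15 libraries varied most among the 10 genes, with 375 ± 95.5 normalized counts (coefficient of variation 25.5%). In contrast to Car6 and Tpsab1, numbers 4 to 6 (401.6 to 506.6 normalized counts) were all above numbers 1 to 3 (236.6 to 358.2). The ratio was 12.5 within numbers 1 to 3 and 17.4 within numbers 4 to 6. The end of the Entpd2 transcript (its last 400 bases) shares 19 bases with exons of Npdc1, which has the same orientation.

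Cdsn and Scara5 encode cell surface proteins. Cdsn (ENSMUSG00000039518, chromosome 17, 35552128 to 35557180, plus strand) encodes corneodesmosin, which joins cornified cells of the epidermis to each other. Its lowest, median and highest counts were 1530, 1858 and 2511 after BAM15 and 10, 14.5 and 28 with vehicle, and the ratio was 122.8 (95% interval 100.7 to 151.4). Libraries numbered 4 to 6 (1592 to 1920 normalized counts) were below those numbered 1 to 3 (2092 to 2361), and the ratio was 147.1 within numbers 1 to 3 and 100.3 within numbers 4 to 6. Scara5 (ENSMUSG00000022032, chromosome 14, 65666403 to 65764826, plus strand) encodes a class A scavenger receptor that binds ferritin. It had 201, 241 and 271 counts (lowest, median, highest) after BAM15 and 4, 7 and 10 with vehicle, a ratio of 34.7 (95% interval 25.6 to 48.2). Scara5 was even among the BAM15 libraries, with a coefficient of variation of 6.08% and overlapping ranges for both sets of numbers.

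Avil (ENSMUSG00000025432, chromosome 10, 127000709 to 127020994, plus strand) encodes advillin, an actin-binding protein of the gelsolin and villin family. Its counts had a lowest, median and highest value of 896, 986.5 and 1329 after BAM15 and of 5, 13.5 and 18 with vehicle. The ratio was 83.5 (95% interval 66.7 to 105.9), with 85.6 within numbers 1 to 3 and 80.9 within numbers 4 to 6. Ranges of the BAM15 libraries overlapped between the sets of numbers.

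The remaining 3 genes encode proteins that act inside the cell. Nrip2 (ENSMUSG00000001520, chromosome 6, 128399296 to 128416427, plus strand) is a co-regulator of nuclear receptors. Of its vehicle libraries, 5 were at 0 and number 3 had 2 counts, whereas BAM15 libraries 1 to 6 had 153, 111, 124, 121, 151 and 109 counts. The ratio of 400.5 was the largest of the 10 and the least certain, with a 95% interval of 110.5 to 3313. Within numbers 4 to 6, where all vehicle libraries were at 0, Nrip2 was at least 44.0-fold higher after BAM15 (against a floor of 3 counts per library). Nrip2 had the lowest level of the 10 after BAM15, at 130.5 ± 12.4 normalized counts. The body of Nrip2 overlaps Itfg2 on the opposite strand, but no exon of another gene covers the last 400 bases of its longest coding transcript. In 1 of its 3 coding transcripts, exons of Gm44596 on the same strand cover 337 of these bases.

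Dyrk4 (ENSMUSG00000030345, chromosome 6, 126876020 to 126921839, minus strand) encodes a dual-specificity kinase of the DYRK family. The vehicle libraries 1 to 6 held 0, 3, 1, 0, 1 and 0 counts, and the BAM15 libraries 197, 169, 232, 122, 124 and 122. The ratio was 201.3 (95% interval 85.9 to 621.2). Among the 10 genes Dyrk4 had the lowest ratio between the sets of BAM15 libraries, with 182.6 to 218.1 normalized counts in numbers 1 to 3 and 116.4 to 142.4 in numbers 4 to 6, a ratio of means of 0.657. Akr1b7 (ENSMUSG00000052131, chromosome 6, 34412334 to 34423142, plus strand) encodes an aldo-keto reductase that reduces aldehydes. Its lowest, median and highest counts were 344, 394 and 446 after BAM15 and 9, 14.5 and 17 with vehicle, a ratio of 30.7 (95% interval 24.6 to 38.8). BAM15 libraries overlapped between the sets of numbers. The end of the Akr1b7 transcript shares 95 bases with exons of Gm13857, which runs in the other direction, and the strand used for counting is not given in the sources used here.

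**Figure D2:**
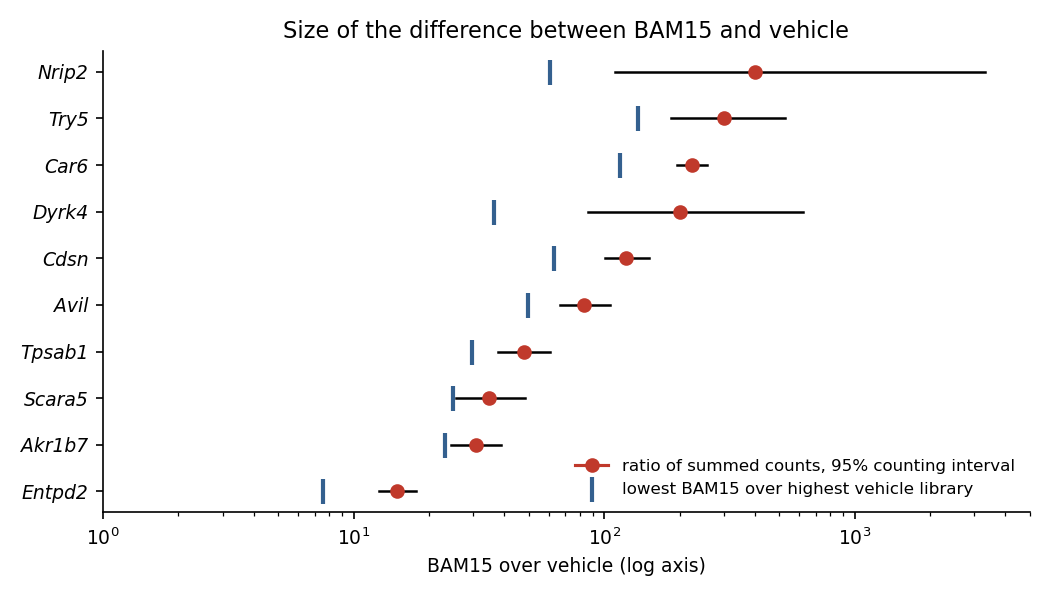
BAM15 over vehicle for each gene on a logarithmic axis. Red points are ratios of summed counts and black lines their 95% counting intervals, and blue ticks give the lowest BAM15 library over the highest vehicle library in CPM. The order runs from Entpd2 (14.9) to Nrip2 (400.5), and the intervals are widest for Nrip2 and Dyrk4, which have the fewest vehicle counts.

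The libraries count transcript ends, so that a count is not proportional to transcript length, and the levels of the genes after BAM15 can be ordered in CPM without a length correction. Car6 (447.9 ± 70.7 CPM) stood above Cdsn (116.1 ± 18.1 CPM), Avil (62.1 ± 8.10 CPM), Try5 (46.4 ± 1.99 CPM) and Tpsab1 (33.6 ± 4.50 CPM), each without overlap with the next (SD, n = 6 libraries each). Below these, Akr1b7 (24.0 ± 1.40 CPM) and Entpd2 (22.2 ± 5.65 CPM) overlapped, as did Entpd2 and Scara5 (14.4 ± 0.876 CPM). Dyrk4 (9.66 ± 2.35 CPM) and Nrip2 (7.72 ± 0.733 CPM) overlapped each other and lay below Scara5.

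The 10 genes did not all differ in the same direction between the sets of BAM15 libraries. Car6, Dyrk4, Cdsn and Tpsab1 were lower in all libraries numbered 4 to 6 than in all numbered 1 to 3, a pattern shared by 27.7% of all tested genes. Entpd2 alone was higher, a pattern of 22.2% of all tested genes. The other 5 genes (Nrip2, Try5, Avil, Akr1b7 and Scara5) overlapped. With vehicle, Try5 was the 1 gene of the 10 without overlap between the sets of numbers. The median coefficient of variation of the 10 genes after BAM15 was 13.2%, against 14.8% over all tested genes.

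**Figure D3:**
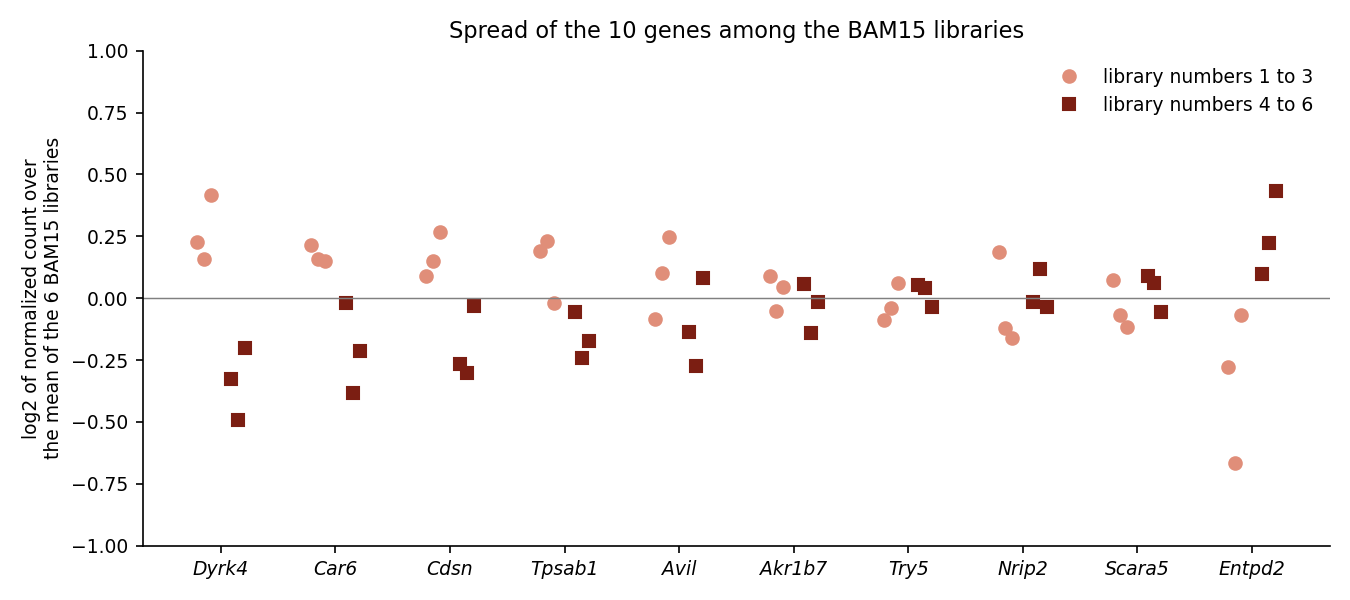
Normalized count of each BAM15 library over the mean of the 6 BAM15 libraries, on a log2 scale, for the 10 genes. Light circles are libraries numbered 1 to 3 and dark squares those numbered 4 to 6. Dyrk4, Car6, Cdsn and Tpsab1 lie lower in numbers 4 to 6, Entpd2 lies higher, and the other 5 genes overlap.

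Among all 12730 tested genes ranked by fitted fold change, the 10 genes had ranks 1 (Nrip2), 2 (Try5), 3 (Car6), 4 (Dyrk4), 6 (Cdsn), 8 (Avil), 18 (Tpsab1), 24 (Scara5), 26 (Akr1b7) and 54 (Entpd2). The calls used here ask for 3 things at once, namely an adjusted p-value under 0.01 (edgeR), more than 50 normalized counts on average over all libraries (base mean) and over 2-fold difference. All 10 met them as higher, as did 3.70% of all tested genes. These values chose the genes. Of the 1803 tested genes with a mean vehicle level up to that of Car6, 53 (2.94%) were past the thresholds and higher, the 10 genes among them. At such vehicle levels a base mean over 50 requires a higher BAM15 level, so a call could only be in this direction. Of 316 genes with at most 3 counts in every vehicle library, 23 had enough counts to test. The share is therefore no background for nearly silent genes. A further 9 genes that are not among the 10 had a vehicle level no higher than Car6, a fold change no smaller than Entpd2 and passed the thresholds: Lin7a, Cxcl5, Ptx3, Atp2a3, Slc7a11, Cth, Gm12022, Fgf21 and Rab39b. Among these, Lin7a had a fitted log2 fold change of 6.33, next to 6.37 for Avil, and Rab39b had 3.96, next to 3.90 for Entpd2.

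**Figure D4:**
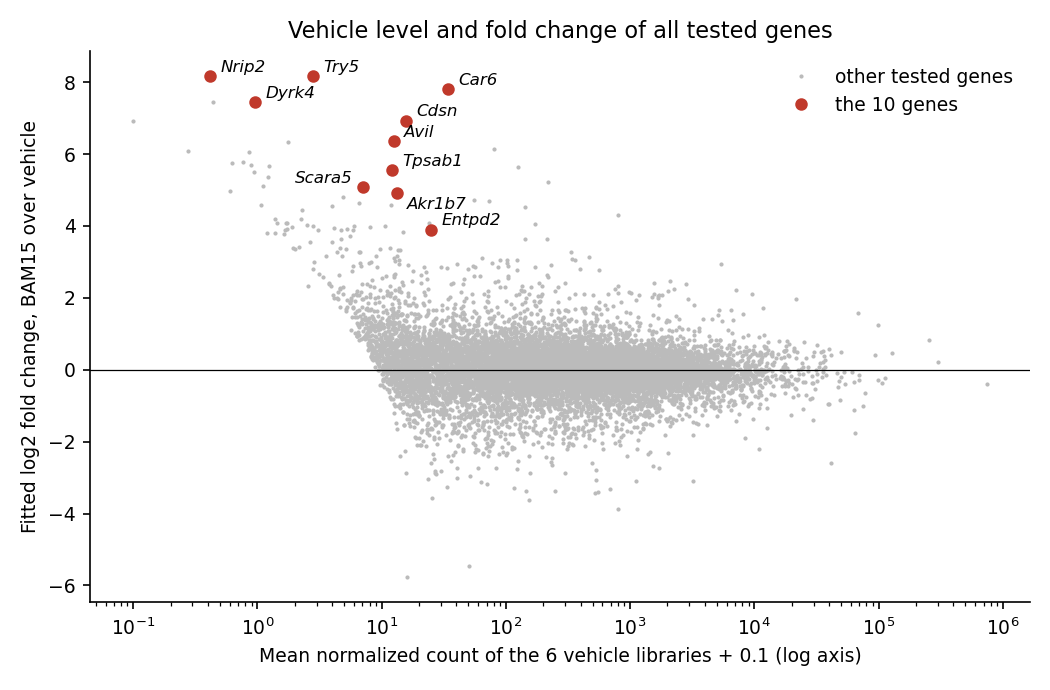
Fitted log2 fold change of all 12730 tested genes (vertical axis) against the mean normalized count of the 6 vehicle libraries plus 0.1 (logarithmic axis). The 10 genes in red have mean vehicle levels between 0.319 and 34.1 normalized counts and log2 fold changes between 3.90 and 8.18. The left edge of the cloud is set by the filter on low counts, which such genes pass only through the BAM15 libraries.

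The genes most like the lowest of the 10 were sought among those with at most 3 counts in every vehicle library. The table lists 316 such genes, of which 137 also had at most 3 counts in every BAM15 library and 30 were at 0 in every vehicle library. Ranked by their median CPM after BAM15 and leaving out the 10, the first was Lin7a, which encodes a scaffold protein of cell junctions and had 106 to 170 counts after BAM15 and a sum of 10 counts over the vehicle libraries. It was followed by BB557941, Sspo, Taf7l, Gsta3, Tfcp2l1, Klf15, Mmp13, S100a7a and Elmo1. BB557941, a processed transcript, had 66 to 86 counts after BAM15 and 2 counts in all vehicle libraries together. Gsta3 (glutathione S-transferase) had 32 to 66 counts, and Mmp13 (collagenase 3) had 33 to 59. Of these, all but Lin7a had a base mean below 50, so that the threshold on the base mean kept them out of the called genes.

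The RefSeq table of promoters on GRCm38.p6, with 250 bases before and 50 after a transcript start, holds 7 windows for 6 of the genes (Entpd2, Car6, Akr1b7, Dyrk4, Avil and Cdsn, the last with 2 starts). Nrip2, Try5, Tpsab1 and Scara5 have no entry in it. Both strands were searched for TGATGNAAN (C/EBP-ATF element), TGACGTCA (cyclic AMP response element), TGACNNNGC (core of the antioxidant response element) and CACGTG (E-box), and for the heat shock element and the endoplasmic reticulum stress element, which are bound by factors of known stress and nutrient responses. The 3 windows with a match are printed 5′ to 3′ on the strand of the gene, with the matched letters in capitals, so that the match can be seen in its context.
Avil, chr10:127000459-127000758, plus strand: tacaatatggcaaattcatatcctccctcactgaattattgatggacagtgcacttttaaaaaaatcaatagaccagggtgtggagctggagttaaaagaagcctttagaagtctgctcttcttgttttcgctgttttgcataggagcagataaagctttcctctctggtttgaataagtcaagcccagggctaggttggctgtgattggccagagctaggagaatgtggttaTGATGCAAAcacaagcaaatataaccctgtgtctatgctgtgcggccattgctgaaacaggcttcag
Entpd2, chr2:25395624-25395923, plus strand: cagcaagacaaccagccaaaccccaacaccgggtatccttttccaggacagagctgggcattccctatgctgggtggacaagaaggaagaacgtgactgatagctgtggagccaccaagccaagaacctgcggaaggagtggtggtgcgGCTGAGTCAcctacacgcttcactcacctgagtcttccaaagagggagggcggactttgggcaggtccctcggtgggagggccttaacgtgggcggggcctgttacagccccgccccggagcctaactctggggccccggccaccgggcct
Car6, chr4:150201086-150201385, minus strand: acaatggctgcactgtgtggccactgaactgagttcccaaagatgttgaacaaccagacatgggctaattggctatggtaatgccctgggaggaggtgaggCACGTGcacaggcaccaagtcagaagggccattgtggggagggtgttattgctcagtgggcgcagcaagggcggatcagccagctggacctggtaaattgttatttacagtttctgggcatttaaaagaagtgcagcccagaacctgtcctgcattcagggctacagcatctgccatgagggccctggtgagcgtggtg
The C/EBP-ATF letters were found in the window of Avil, on the strand of the gene and 17 bases before the start. They occur in 3.95% of the 32851 windows of the table. The antioxidant response element core was found in the window of Entpd2, on the opposite strand and 101 bases before the start, and occurs in 12.4% of all windows. The E-box was found in the window of Car6, 149 bases before the start, and occurs in 7.15% of all windows. The cyclic AMP response element, the heat shock element and the endoplasmic reticulum stress element were in 0 of the 7 windows, and are in 1.79%, 0.603% and 0.119% of all windows. No motif was shared by windows of different genes of the set. A match of letters is not a bound site, and the absence of a match says nothing beyond this window.

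On the genome, Akr1b7, Try5, Dyrk4 and Nrip2 lie on chromosome 6, which holds 5.21% of the genes of the table, and Tpsab1 and Cdsn on chromosome 17. The nearest gene of the count table on each side of each of the 10 genes was tested to see whether the difference extended along the chromosome. Of these 20 neighbours, 17 had enough counts, and 1 was past the thresholds and higher and 2 were past them and lower, against 7.28% called over all tested genes in either direction. The median log2 fold change of the 17 was 0.01. The 2 neighbours called lower lie beside Dyrk4 and Scara5. Rad51ap1, a homologous recombination gene that lies 1211 bp from Dyrk4, fell from 132.7 ± 14.7 to 38.9 ± 4.31 normalized counts (log2 −1.77, SE 0.11, edgeR quasi-likelihood with Benjamini-Hochberg adjusted p = 6.15e-09), with all 6 BAM15 libraries below all vehicle libraries. Pbk, a mitotic kinase gene 41011 bp from Scara5, fell from 345.3 ± 30.7 to 81.4 ± 8.96 normalized counts (log2 −2.08, SE 0.09, edgeR adjusted p = 8.13e-11), again without overlap. Both changed in the direction opposite to the gene beside them. A further 4 neighbours had lower values past the adjusted p-value of 0.01 by edgeR and missed another threshold. That adjusted p-value alone was passed by 42.3% of all tested genes, in either direction. Sox8, a transcription factor gene beside Tpsab1, went from 57.1 ± 9.24 to 12.5 ± 7.33 normalized counts without overlap (log2 −2.21, edgeR adjusted p = 1.20e-05), a larger difference than that of Pbk, with a base mean of 34.8. The others were Sapcd2 beside Entpd2 (log2 −0.90, base mean 35.1), Bpgm beside Akr1b7 (−0.54) and Ndufa9 beside Dyrk4 (−0.29). Elp3, on the other side of Scara5 from Pbk, was at 0.35 and passed the adjusted p-value as higher, under 2-fold.

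The neighbours closest to the 10 genes, other than Rad51ap1, had smaller differences. Itfg2, which overlaps Nrip2, had a log2 fold change of 0.32 and Tsfm, which overlaps Avil, of 0.31, while Npdc1, which overlaps Entpd2, had 0.19. Ctdsp2 ends 734 bp before Avil and had a log2 fold change of 0.07. None of these 4 passed the 2-fold threshold, although Itfg2 (adjusted p = 5.62e-03) and Npdc1 (adjusted p = 6.54e-03) passed that on the adjusted p-value by edgeR. Akr1b10, the relative of Akr1b7 at a distance of 15384 bp on the same strand, went from 292.6 ± 44.7 to 379.5 ± 98.4 normalized counts (log2 0.37, edgeR adjusted p = 0.06), which did not pass.

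To see whether the families of the 10 genes moved with them, 117 relatives and functional partners were listed in 10 groups. The table holds 57 of them and 49 were tested. Of these, 2 were past the thresholds and higher and 4 were past them and lower, and their median log2 fold change was −0.05, against 7.28% called and a median of 0.02 over all tested genes. Single relatives and markers are also named below for passing the adjusted p-value alone, which 42.3% of all tested genes did. Genes that are not listed in the table were not analysed here, and nothing is said of their level.

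Of 15 carbonic anhydrases other than Car6, 10 were in the table, 8 were tested and 1 was past the thresholds, in the lower direction. Car5b, which encodes a mitochondrial carbonic anhydrase, fell from 457.9 ± 37.0 to 186.7 ± 26.4 normalized counts (log2 −1.29, SE 0.09, edgeR adjusted p = 2.04e-08, lower in 6 of 6). Car3, the cytosolic enzyme that is abundant in muscle, had the highest vehicle level of the family and a log2 fold change of −0.68 (edgeR adjusted p = 1.13e-04), under 2-fold. The hypoxia-inducible Car9 had a log2 fold change of 1.74 (edgeR adjusted p = 5.45e-03) but a base mean of 29.7, below the threshold of 50. It was uneven among the BAM15 libraries (45.8 ± 35.1 normalized counts), with a log2 fold change of 0.57 within numbers 1 to 3 and 2.33 within numbers 4 to 6. Car7 (0.66) and Car11 (0.48) passed the adjusted p-value as higher by edgeR, under 2-fold.

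Enzymes that handle extracellular nucleotides included 1 gene that rose and 1 that fell beside Entpd2, with 9 of 13 tested. Enpp2, which encodes autotaxin, a secreted enzyme of the nucleotide pyrophosphatase family that forms lysophosphatidic acid, rose from 120.1 ± 15.7 to 506.5 ± 36.4 normalized counts (log2 2.08, SE 0.09, edgeR adjusted p = 7.04e-11, higher in 6 of 6). Enpp1, which cleaves extracellular ATP to AMP and pyrophosphate, fell from 580.4 ± 41.0 to 187.2 ± 17.5 (log2 −1.63, SE 0.08, edgeR adjusted p = 1.76e-10, lower in 6 of 6). Of the Entpd2 relatives, Entpd5 had a log2 fold change of 0.54 (edgeR adjusted p = 1.33e-05) under the 2-fold threshold, and Entpd3, Entpd6 and Entpd7 did not pass an adjusted p-value of 0.01. Nt5e, which encodes the enzyme that makes adenosine from AMP, had a log2 fold change of 0.46 (edgeR adjusted p = 0.0288).

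Of 16 aldo-keto reductases beside Akr1b7, 7 were tested and 1 was called. Akr1b3, the mouse aldose reductase, rose from 47.7 ± 8.72 to 102.4 ± 42.3 normalized counts (log2 1.10, SE 0.24, edgeR adjusted p = 1.36e-03, higher in 6 of 6). Without BAM15 library 5 it was 0.89 and not called, and within library numbers 1 to 3 it was 0.73 and not called either. Akr1a1 had the highest vehicle level of the family and a log2 fold change of 0.15, and Akr1b8 of −0.18. Neither passed. DYRK and HIPK kinases had 7 of 8 genes tested and 0 called, with Dyrk2 at 0.51, Hipk1 at 0.41 and Hipk2 at −0.51 past the adjusted p-value of 0.01 alone by edgeR. Dyrk1a, which had the highest vehicle level among them, had a log2 fold change of −0.05 (edgeR adjusted p = 0.591).

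The gelsolin and villin family had 4 of 7 genes tested and 0 called. Gsn, which encodes gelsolin and had the highest vehicle level of these, was lower at a log2 fold change of −0.77 (edgeR adjusted p = 3.08e-08), under 2-fold, and Capg was at −0.25, Flii at −0.20 and Svil at −0.08. Both tested class A scavenger receptors beside Scara5 had lower counts after BAM15 and neither was called. Colec12 had a log2 fold change of −0.83 (edgeR adjusted p = 1.30e-05) and Scara3 of −1.18 with a base mean of 40.5 (edgeR adjusted p = 1.65e-05). Both genes named for an interaction with nuclear receptors were near 0, with Nrip1 at −0.09 and Nrip3 at −0.11.

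**Figure D5:**
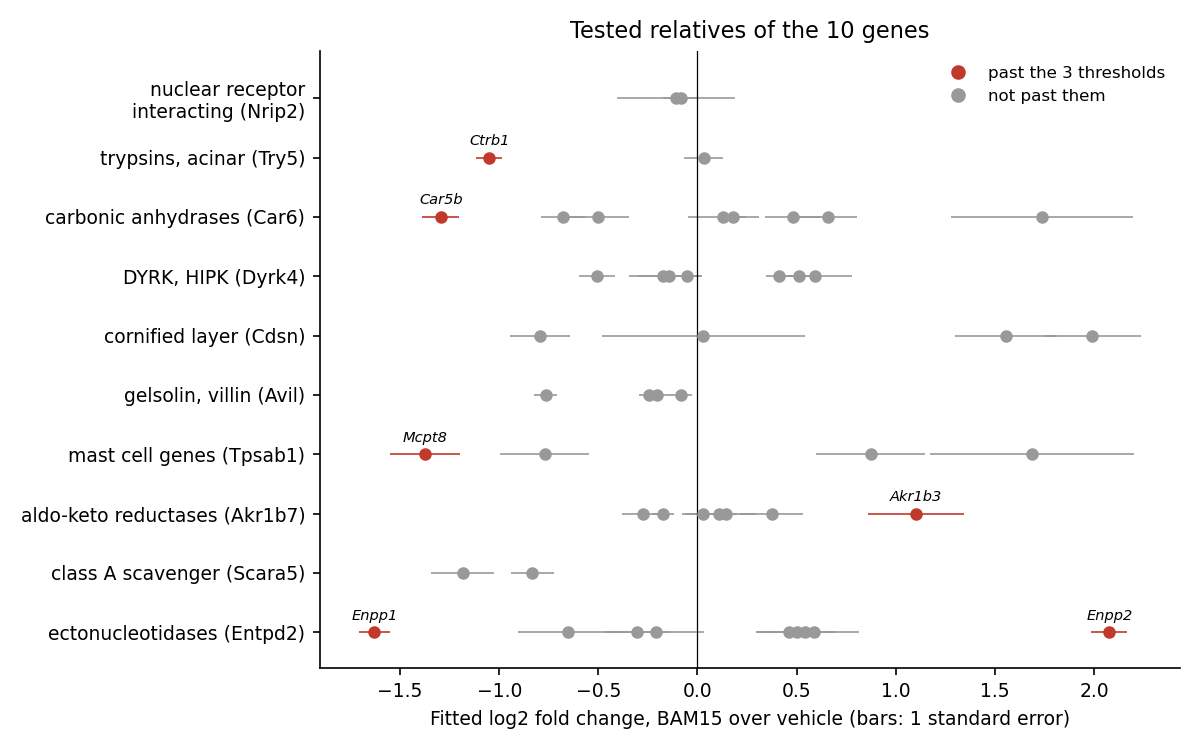
Fitted log2 fold change of the 49 tested relatives and partners, with bars of 1 standard error, in 10 rows named for the group and, in brackets, the gene of the set that belongs to it. Red points passed the 3 thresholds and grey points did not. The 2 higher genes are Enpp2 and Akr1b3, the 4 lower genes are Enpp1, Car5b, Mcpt8 and Ctrb1, and the other 43 were not called.

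Because several of the 10 genes mark other cell types, markers of those cells were examined beside them. For mast cells, where Tpsab1 is best known, 1 of 8 markers was in the table. This was Hdc, with 0.884 to 2.35 CPM after BAM15 and 2.08 to 3.58 CPM with vehicle, and Cpa3, Cma1, Mcpt4, Tpsb2, Kit, Fcer1a and Ms4a2 were not listed. In the wider list of 14 genes drawn up for mast cells, 4 were tested. Of these Mcpt8, a granule protease gene that is not specific to mast cells, was past the thresholds and lower (102.0 ± 6.67 to 39.4 ± 12.8 normalized counts, log2 −1.37, SE 0.17, edgeR adjusted p = 9.18e-06). The other 3 tested genes were Hdc (log2 −0.77, edgeR adjusted p = 8.81e-03, base mean 35.3), Srgn (1.69, edgeR adjusted p = 0.0122) and Gata2 (0.87, edgeR adjusted p = 0.0159), and none of these was called. The median of the 4 was 0.05, and the summed level of the list overlapped between the conditions (8.11 to 19.98 CPM after BAM15 and 12.1 to 13.8 CPM with vehicle). For keratinocytes, the cells of Cdsn, 2 of 8 markers were in the table (Krt10 and Krt14), with a summed level of 3.77 to 8.93 CPM after BAM15 and 6.04 to 9.47 CPM with vehicle. In the wider group of 18 cornified layer genes, 4 were tested and 0 called, although Dsg3 (log2 fold change 1.99) and Spink5 (1.56) passed the adjusted p-value by edgeR as higher with base means of 21.8 and 28.3, and Krt14 (−0.79) passed it as lower, under 2-fold.

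For pancreatic acinar cells, the site of trypsin synthesis, 3 of 8 markers were in the table (Cpa1, Cela1 and Ctrb1), and their summed level was 38.2 to 46.8 CPM after BAM15 and 61.8 to 73.8 CPM with vehicle. Ctrb1, which encodes chymotrypsinogen, fell from 808.9 ± 47.2 to 390.4 ± 27.5 normalized counts (log2 −1.05, SE 0.06, edgeR adjusted p = 3.07e-09, lower in 6 of 6). The other tested acinar marker, Cela1, had a log2 fold change of 0.03, so that the summed level of this list follows Ctrb1. In the wider list of 20 trypsins and acinar genes, 3 were in the table, 2 were tested, and Ctrb1 was the 1 called. Within library numbers 1 to 3 the log2 fold change of Ctrb1 was −0.96 and it was not called. Of 10 sensory neuron markers, 5 were in the table (Prph, Isl1, Pou4f1, Scn10a and P2rx3) at 5.22 to 8.26 CPM after BAM15 and 11.01 to 12.7 CPM with vehicle. Only 2 of them had enough counts to test, and 0 were called. These were Pou4f1 (log2 −0.75, edgeR adjusted p = 1.07e-04) and Scn10a (log2 −0.80, edgeR adjusted p = 7.09e-04), both lower by less than 2-fold. Of 6 salivary gland markers, Aqp5 and Amy1 were in the table at 17.03 to 28.0 CPM after BAM15 and 50.4 to 56.8 CPM with vehicle, and Aqp5, a water channel gene, fell by 1.25 on the log2 scale (SE 0.11, edgeR adjusted p = 1.81e-07).

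Peripheral glia, in which Entpd2 is known, had 4 of 6 markers in the table (36.5 to 51.3 CPM after BAM15 and 49.1 to 63.7 CPM with vehicle) with 0 called. Adventitial fibroblasts, in which Scara5 is known, also had 4 of 6, at 157.7 to 184.7 CPM after BAM15 and 304.0 to 353.6 CPM with vehicle. Among these Ly6a fell from 5292 ± 301.1 to 2411 ± 185.0 normalized counts (log2 −1.13, SE 0.06, edgeR adjusted p = 6.63e-10). The summed level of this list is mostly Ly6a, and the other 3 markers had log2 fold changes of 0.40 (Pi16), 0.02 (Cd34) and −0.34 (Pdgfra), none past the adjusted p-value of 0.01 by edgeR. In total, 24 of 61 markers were tested, and these totals include the 9 myotube markers, of which 0 were called. Of the 24, 0 were past the thresholds and higher and 3 were past them and lower, against 3.70% and 3.58% of all tested genes. The 3 (Ctrb1, Aqp5 and Ly6a) were all among the markers of other cell types. The part of other cell types in the values of the 10 genes was not tested.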

How the data were processed

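The authors prepared QuantSeq 3′ libraries, sequenced them in the forward direction and used BlueBee software for the alignment. The deposited counts are whole reads per Ensembl gene without normalization, and the submitters' notes name GRCm38 (mm10). The aligner version, counting tool, annotation and counting strand are not given in the sources used here. A deposited table of normalized signal, made by the authors with DESeq2 1.22.2, differs from the counts by a constant factor in each library (0.836 to 1.07) and served for symbols and 1 alternative. The tables also hold 11 columns of samples outside this series, which were not used. Symbols for 2260 identifiers and positions came from GENCODE M21.

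Counts were fitted in R 4.3.3 with edgeR 4.0.16 (filterByExpr, which left 12730 genes, TMM, robust quasi-likelihood test, condition as the only term), with Benjamini-Hochberg adjustment over the tested genes. A gene was called when its adjusted p-value was under 0.01, its base mean over 50 and its change over 2-fold. On simulated counts, 200 genes with over 50 expected vehicle counts were changed by 2 on the log2 scale. edgeR recovered 196 among 12613 tested and DESeq2 1.42.0 recovered 196 among 15075 tested, with 0 others called. The simulation gave all genes the same spread and no split between library numbers. It therefore does not measure the rate of false calls in these libraries. Chi-square values per gene of 4.46 to 73 for pairs of libraries of 1 condition showed no copies. Ratios have exact binomial intervals (scipy 1.17.1), and figures were drawn from the same values with matplotlib 3.10.9.

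The 10 genes, the lists of relatives and markers and the split by library number were chosen with earlier results of these data known. The genes named are the 10, the listed relatives that were called or had the highest vehicle level of their list, the markers, the nearest neighbours (1 called neighbour is counted but not reported here), and the 10 genes with at most 3 counts in every vehicle library and the highest median CPM after BAM15. Values of other relatives (those past the adjusted p-value alone, or near relatives of a member) were added after they were seen. Alternatives were DESeq2, other scalings, no filter, a block for the library number, each library left out, library numbers 1 to 3 or 4 to 6 alone, and the adjusted p-value alone.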

Additional observations from a re-analysis of the deposited data

Results flagged for a closer look

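In 42 groups of 6 libraries (21 genes: the 10 genes and the called relatives, neighbours and markers, in 2 conditions), 4 held a library far from the others by Dixon's test. For normally distributed values, chance gives this for about 1 group in 20. Vehicle library 3 had 1.91 normalized counts of Nrip2 where the other 5 were at 0, and vehicle library 2 had 3.19 of Dyrk4 against 0 to 1.03, so that both rest on at most 3 reads. The chance rate does not hold for these 2 groups, whose values are counts at or near 0. For Enpp2, BAM15 library 6 had 436.5 normalized counts against 500.9 to 538 in the others. For Ly6a, BAM15 library 6 had 2766 against 2277 to 2446.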

How the results depend on the processing

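At an adjusted p-value below 0.01 alone, without the base mean and fold change, 5379 genes (42.3% of those tested) passed in place of 927. Among the tested genes of the lists, 22 of 49 relatives passed in place of 6, 10 of 17 neighbours in place of 3 and 14 of 24 markers in place of 3. Under every other alternative each of these counts stayed within 1.5 times its value. Leaving out 1 library at a time gave 922 to 955 genes, 5 to 7 relatives, 2 to 3 neighbours and 3 markers, and a median log2 fold change of the 10 genes of 6.54 to 6.75 (all libraries 6.65). Where all vehicle libraries of Nrip2 were at 0, this median was 5.89 (numbers 4 to 6) and 6.08 (without vehicle library 3) with Nrip2 at its lower bound. That bound within numbers 4 to 6 was 132 with a floor of 1 count per library and 26.4 with 5 counts. All 10 genes stayed higher after BAM15 in every alternative, with the widest ranges of the fitted log2 fold change in Nrip2 (7.39 to 10.02), Try5 (7.58 to 9.10) and Dyrk4 (7.13 to 8.32), the genes with the fewest vehicle counts. The upper value of Nrip2 is fitted against vehicle libraries all at 0 and depends on the prior count. With a block for the library number 933 genes, 6 relatives, 2 neighbours and 3 markers were called. Whether the numbers pair the libraries was not settled. The correlation of deviations between libraries of the same number was −0.08 to 0.38, and 2 of 6 BAM15 libraries correlated best with their own number. The split among the BAM15 libraries also enters these deviations. DESeq2 called 936 genes. Depth limits Nrip2, Dyrk4 and Try5, whose vehicle sums are 2, 5 and 16 counts.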
